A study of Mus musculus with 192 samples.

Results

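The genes described here encode the enzymes that write and erase 5-methylcytosine in mouse DNA, together with their closest cofactors. They were taken by name: the DNA methyltransferases Dnmt1, Dnmt3a and Dnmt3b, the catalytically inactive cofactor Dnmt3l, the hemimethyl-DNA binding protein Uhrf1, and the dioxygenases Tet1, Tet2 and Tet3. All 8 genes were among the 45191 genes listed for total RNA and the 54146 listed for transfected cells, whereas 7 of them, without Dnmt1, were among the 39815 genes listed for cytoplasmic and nuclear RNA. Every listed member passed the filter on low counts in each test.

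All samples came from E14 mouse embryonic stem cells (mESCs), a 129/Ola line. Cells at 0 h were kept in 2i medium (inhibitors of MEK and GSK3) with LIF, and the 6 h to 96 h samples had then been exposed to 0.25 µM retinoic acid (RA) in N2B27 medium, which gives a mixture of extraembryonic endoderm-like (XEN) and ectoderm-like (ECT) cells. Poly(A) RNA was sequenced from nuclear and cytoplasmic fractions at 8 times in biological replicates 5, 6 and 7 (24 libraries each), which the library names call runs, from unfractionated cells (total RNA, 14 libraries), and from sorted XEN and ECT cells at 96 h (1 library each). Small RNA was sequenced at the same 8 times with 4 libraries a time (32 libraries), of runs 5, 6 and 7 and of run 4 at 6 h and 12 h or run 3 at the other times. For the transfections, undifferentiated cells in 2i medium with serum received 1 of 14 miR mimics for 24 h or 1 of 14 miR inhibitors (locked nucleic acids) for 48 h, and were compared with scrambled oligos and with no treatment, in 3 batches each (48 mimic and 48 inhibitor libraries).

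Methylation of CpG sites is laid down by 2 routes. DNMT3A and DNMT3B methylate unmodified DNA de novo, stimulated by DNMT3L, and DNMT1 copies the pattern onto the new strand at replication, where UHRF1 recruits it to hemimethylated sites. TET1, TET2 and TET3 oxidise 5-methylcytosine, and the oxidised bases are lost by dilution or through base excision by TDG. Stem cells in 2i are hypomethylated and gain methylation as they leave the naive state, and Dnmt3l is known as a gene of the early embryo and of germ cells.

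miR-152-3p belongs to a family whose members share bases 2 to 8, the seed, and it was among the transfected miRs. The RefSeq mature sequences of that family (build GRCm38.p6) are shown with the seed in capitals, because the 3' UTR of Dnmt1 carries its complement.
mmu-miR-152-3p: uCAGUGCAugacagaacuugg
mmu-miR-148a-3p: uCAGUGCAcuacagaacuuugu
mmu-miR-148b-3p: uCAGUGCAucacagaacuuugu
These arms lie at chr11:96850439-96850459 (plus strand), chr6:51269829-51269850 (minus strand) and chr15:103285185-103285206 (plus strand). The 7-letter complement of the seed, TGCACTG, searched on the transcribed strand of the GENCODE M21 3' UTRs (GRCm38), was found in 12.6% of 20996 UTRs and in 2 of the 8 members, once in each. Both sites are shown with 11 bases on either side, with the complement in capitals, and both are followed by an A.
Dnmt1: agagccccacgTGCACTGatgtttttaac
Uhrf1: ttttcagagagTGCACTGactgggtgtca
The Dnmt1 site was at chr9:20907481-20907509 (minus strand), starting at base 23 of a UTR of 312 bases, and 3.198% of 1876 UTRs of like length held the same 7 letters. The Uhrf1 site was at chr17:56323104-56323132 (plus strand), starting at base 613 of a UTR of 984 bases, and 10.5% of 2940 UTRs of like length held it.

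The miR-29 family is the other family known to target writers. Its seed (capitals) is common to 3 mature miRs.
mmu-miR-29a-3p: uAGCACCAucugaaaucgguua
mmu-miR-29b-3p: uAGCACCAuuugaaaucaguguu
mmu-miR-29c-3p: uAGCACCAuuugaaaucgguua
The complement TGGTGCT stood in 13.1% of the 20996 UTRs, and in 5 members. Dnmt3a had 5 matches in 6696 bases, Dnmt3b 1 in 1331, Tet1 7 in 7962, Tet2 5 in 3058 and Tet3 8 in 5669, while Dnmt1, Dnmt3l and Uhrf1 had none. At least 1 match was also found in 46.2%, 12.3%, 50.7%, 26.9% and 43.7% of UTRs with lengths like those of Dnmt3a, Dnmt3b, Tet1, Tet2 and Tet3. A match in Dnmt3a, at chr12:3911463-3911491 (plus strand) from base 3727 of the UTR, is printed as an example.
Dnmt3a: gggtcccaagcTGGTGCTaattcctctca
A match of letters is a description and does not show that a miR binds there.

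The 8 genes lie on separate loci of GRCm38 (GENCODE M21): Dnmt1 at chr9:20907209-20959888 (minus strand), Uhrf1 at chr17:56303321-56323486 (plus), Dnmt3a at chr12:3806007-3914443 (plus), Dnmt3b at chr2:153649450-153687730 (plus), Dnmt3l at chr10:78041947-78063622 (plus), Tet1 at chr10:62804570-62908996 (minus), Tet2 at chr3:133463679-133545139 (minus) and Tet3 at chr6:83362373-83459084 (minus). Dnmt3b has a near copy, Dnmt3c, so that reads could be split between them, and its values are uncertain to that degree.

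Libraries held 6860451 to 30624948 counts in nuclear RNA, 9119521 to 21652601 in cytoplasmic RNA, 29362017 to 36364330 in single-end and 12653980 to 13692847 in paired-end total RNA, 28422965 to 36228870 in sorted cells, 1041501 to 16740562 in small RNA, 6257546 to 37413414 with mimics and 8461493 to 44083843 with inhibitors. The single-end total RNA libraries at 36 h and 48 h (replicate 1) were nearly equal, with a median squared difference of 0.546 times the sampling noise against 4.28 for the next closest pair, so that they carry little separate information. The characteristics of the 2 sorted libraries give XEN the gate CD24+/PDGFRA- and ECT the opposite, while the sorting protocol gives XEN the gate PDGFRA+. Pdgfra stood at 752 CPM (counts scaled to library size) in the library titled XEN and 202 CPM in that titled ECT, and Cd24a at 21.003 CPM in XEN and 638 CPM in ECT, so the titles were kept. Among the transfected libraries, miR-1946b mimic replicate 2 stood apart from its group, and miR-100-5p mimic replicate 3, which the study had left out for low complexity, was left out here as well. Because these are bulk samples, fewer cells of a type and less RNA per cell cannot be told apart.

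To follow the members during RA differentiation, TMM-normalised CPM values were compared between times in each fraction with edgeR's quasi-likelihood test, calling an adjusted p under 0.05 over all genes tested. The 7 measured members changed over the 8 times in both fractions. This is no distinction, since 74.2% of nuclear and 85.1% of cytoplasmic genes passed the same test. By the shape of their means, Dnmt3a, Dnmt3b, Dnmt3l and Tet1 rose and then fell, with Tet1 ending far below its start. Uhrf1 and Tet2 declined, and Tet3 was highest at 72 h and 96 h.

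Dnmt3l had the widest range among the writers. In cytoplasmic RNA it averaged 21.7 ± 2.1, 335.8 ± 35.03, 419.8 ± 32.8, 325.0 ± 18.9, 444.2 ± 44.3, 481.2 ± 51.5, 214.6 ± 41.2 and 74.2 ± 5.6 CPM at the 8 times from 0 h to 96 h (SD, n = 3). It had thus gained most of its level within the first 6 h: nuclear values were 333, 338 and 358 CPM at 6 h, against 20.5, 25.2 and 17.2 CPM at 0 h, and cytoplasmic values were 338, 300 and 370 CPM at 6 h, against 23.2, 22.5 and 19.3 CPM at 0 h. The log2 fold change at 6 h was 4.03 in nuclear and 3.94 (SE 0.13) in cytoplasmic RNA. Between 12 h and 24 h the mean dipped in both fractions before it reached its highest level at 48 h, and by 96 h it was still above the start. At 96 h the 3 nuclear libraries held 80.7, 87.3 and 84.0 CPM and the 3 cytoplasmic libraries 68.0, 75.6 and 78.9 CPM, which gave log2 fold changes over 0 h of 2.00 (SE 0.12) and 1.73 (SE 0.13, edgeR adjusted p = 5.2e-11).

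Dnmt3a gained less in the first 6 h (log2 fold change 0.67 in nuclear and 0.55 in cytoplasmic RNA). Cytoplasmic means were 45.1 ± 3.0, 67.8 ± 10.96, 91.8 ± 10.3, 229.8 ± 19.6, 336.6 ± 21.9, 265.8 ± 11.5, 164.6 ± 6.3 and 142.3 ± 2.0 CPM from 0 h to 96 h (SD, n = 3), with the highest level at 36 h in both fractions and a ratio of highest to lowest mean of 7.46 in the cytoplasm. The 96 h libraries (134, 142 and 139 CPM nuclear, 143, 140.0 and 144 CPM cytoplasmic) all stood above those at 0 h (45.0, 45.5 and 46.0 CPM nuclear, 42.9, 43.9 and 48.5 CPM cytoplasmic). The log2 fold change at 96 h was 1.61 (SE 0.10) in nuclear and 1.60 (SE 0.10) in cytoplasmic RNA.

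Dnmt3b, which already stood at a higher read level at 0 h, followed a flatter arc and ended near its start. Cytoplasmic means were 129.5 ± 9.1 CPM at 0 h, 214.7 ± 14.8 at 6 h, 323.8 ± 14.4 at 36 h, 330.3 ± 25.1 at 48 h, 159.5 ± 12.7 at 72 h and 127.9 ± 19.4 CPM at 96 h (SD, n = 3). At 96 h the cytoplasmic libraries held 109, 128 and 147 CPM, against 124, 140 and 125 CPM at 0 h, and the groups overlapped. The difference missed the threshold in both fractions, with a log2 fold change of -0.12 (edgeR adjusted p = 0.35) in nuclear and -0.07 (SE 0.09, adjusted p = 0.53) in cytoplasmic RNA.

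Uhrf1, the partner of DNMT1 in maintenance, had a lower mean at each step after 6 h in both fractions. Cytoplasmic means were 1057 ± 45.4 CPM at 0 h, 850.2 ± 19.3 at 24 h, 603.8 at 48 h and 466.1 ± 3.7 CPM at 96 h (n = 3), and the nuclear means at 0, 24, 48 and 96 h were 1148, 851.2, 587.6 and 477.4 CPM. The 96 h libraries (542, 482 and 409 CPM nuclear, 464, 464 and 470 CPM cytoplasmic) all lay below those at 0 h (1191, 1207 and 1047 CPM nuclear, 1013, 1055 and 1104 CPM cytoplasmic). It fell by 1.26 (SE 0.14) in nuclear and by 1.23 (SE 0.06) in cytoplasmic RNA on the log2 scale.

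The TET genes parted from each other. Tet1, with Tet2 the main TET of undifferentiated mESCs, was higher at 6 h and had its highest mean at 24 h in both fractions. Cytoplasmic means were 359.9 ± 17.1, 690.0 ± 154.0, 676.7 ± 47.4, 787.1 ± 36.0, 458.1 ± 124.9, 177.3 ± 29.2, 67.0 ± 11.4 and 51.5 ± 1.7 CPM from 0 h to 96 h (SD, n = 3). The wide cytoplasmic SD at 6 h and 36 h came from a low library each (514 CPM beside 757 and 799 at 6 h, and 314 CPM beside 532 and 529 at 36 h). Nuclear libraries of runs 5, 6 and 7 held 1026, 1164 and 645 CPM at 24 h and 991, 829 and 954 CPM at 6 h, and these overlapped. In run 7 Tet1 was higher at 6 h than at 24 h in both fractions (cytoplasmic 799 and 745 CPM). At 96 h Tet1 held 37.9, 42.3 and 45.4 CPM in nuclear and 53.3, 50.1 and 51.1 CPM in cytoplasmic RNA, and had fallen by 3.38 (SE 0.23) and 2.85 (SE 0.18) on the log2 scale relative to 0 h.

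Tet2 missed the threshold at 6 h and had its lowest levels at 72 h and 96 h. Cytoplasmic means were 328.3 ± 9.4 CPM at 0 h, 355.2 ± 26.2 at 12 h, 173.4 ± 7.5 at 48 h, 45.0 ± 12.6 at 72 h and 33.1 ± 4.0 CPM at 96 h. At 96 h the libraries held 43.2, 39.4 and 27.5 CPM in nuclear RNA, against 450, 404 and 429 CPM at 0 h, and 35.1, 35.7 and 28.5 CPM in cytoplasmic RNA, against 322, 324 and 339 CPM at 0 h. The log2 fold changes of -3.54 (SE 0.20) and -3.35 (SE 0.14) were the lowest among the 7 members, although the nuclear values of Tet2 and Tet1 lay within their errors.

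Tet3 ran the other way. It stayed between 18.7 ± 5.5 and 27.1 ± 3.0 CPM (cytoplasmic means) up to 36 h, and stood at 41.1 ± 5.2, 78.5 ± 12.1 and 104.2 ± 10.5 CPM at 48, 72 and 96 h (SD, n = 3). At 96 h the nuclear libraries held 106, 105 and 84.5 CPM, against 30.2, 21.8 and 26.9 CPM at 0 h, and the cytoplasmic libraries 115, 103 and 94.1 CPM, against 17.5, 22.9 and 24.2 CPM at 0 h. It rose by 1.91 (SE 0.19) in nuclear and 2.22 (SE 0.17) in cytoplasmic RNA on the log2 scale.

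**Figure D1:**
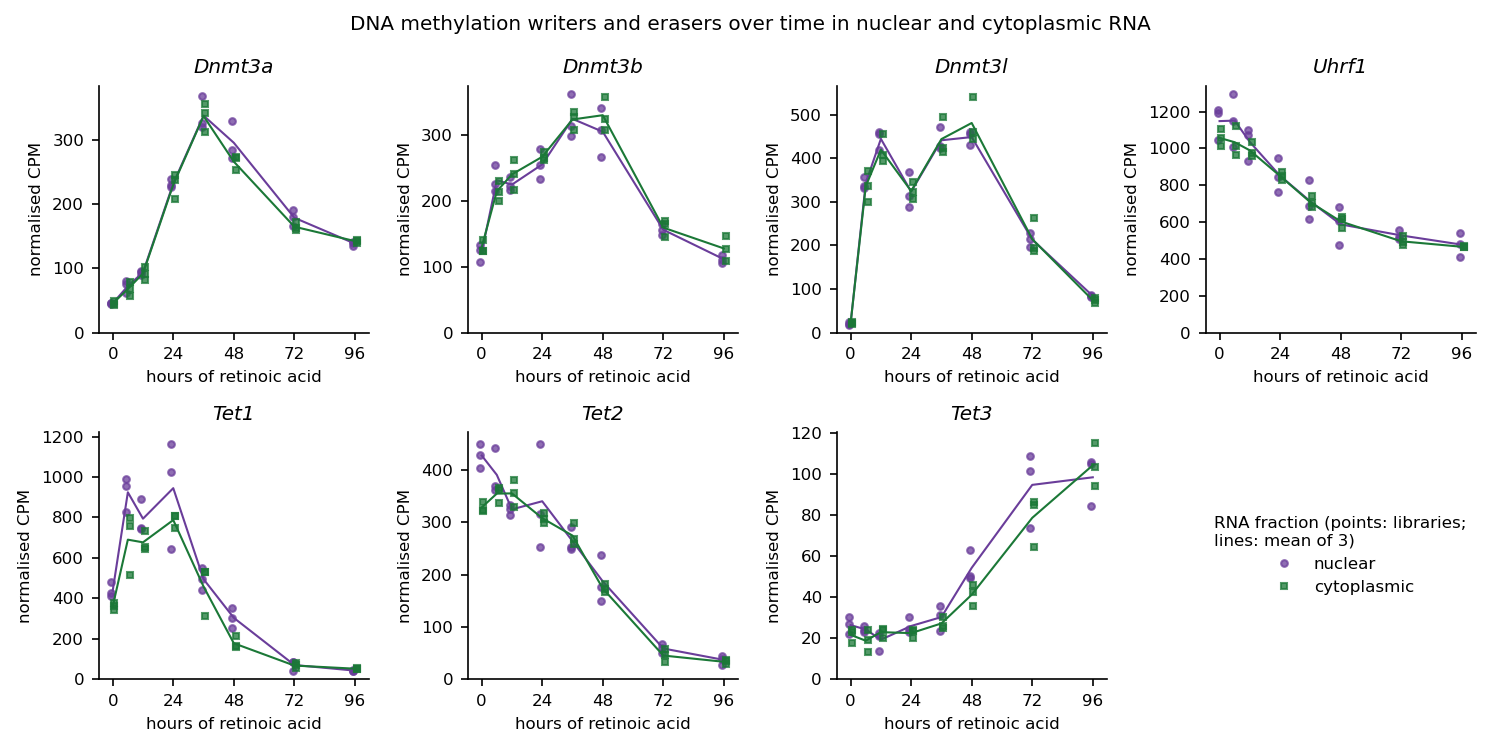
TMM-normalised CPM (y axis, linear, from 0) of the 7 members listed in the fractions against hours of RA (x axis), with 1 point per library (nuclear circles, cytoplasmic squares) and lines through the means of 3. Dnmt3l climbed within 6 h, and the mean of Dnmt3a was highest at 36 h and that of Tet1 at 24 h. Tet3 was the only member of the 7 with its highest mean at 96 h.

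Counted together, 4 of the 7 members (Dnmt3a, Dnmt3b, Dnmt3l and Tet1) were called higher at 6 h than at 0 h in each fraction, where 10.7% of nuclear and 16.2% of cytoplasmic genes were. Uhrf1, Tet2 and Tet3 missed the threshold at 6 h, with cytoplasmic log2 fold changes of -0.06, 0.09 and -0.25. From 48 h to 72 h, 5 members in nuclear and 6 in cytoplasmic RNA were called lower, against 11.5% and 19.1% of all genes, and Tet3 was called higher in both. Uhrf1 at 72 h against 48 h had a nuclear log2 fold change of -0.15 (edgeR adjusted p = 0.47) and a cytoplasmic one of -0.29, which missed the threshold without run 6 (-0.27, adjusted p = 0.069). The nuclear change of Tet3 over the same step (0.80) missed it without run 5 (0.69, adjusted p = 0.053) and without run 6 (0.61, adjusted p = 0.11). At 96 h against 0 h, 3 members were higher (Dnmt3a, Dnmt3l, Tet3) and 3 lower (Tet1, Tet2, Uhrf1) in each fraction, against 27.7% of nuclear and 33.3% of cytoplasmic genes called higher and 27.8% and 34.4% called lower. Naive pluripotency markers moved over the same times, with summed levels of 254 to 347 CPM in the cytoplasmic libraries at 96 h and 4386 to 4692 CPM at 0 h. XEN markers summed to 22144 to 33463 CPM at 96 h and 535 to 597 CPM at 0 h, and ectoderm markers to 930 to 1007 CPM at 96 h and 165 to 187 CPM at 0 h. The part of this change in cell types in the members' values was not tested.

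Read levels of different genes can be compared only per length, and for this the deposited TPM values (transcript abundance scaled by length and library) were used. In cytoplasmic RNA, Uhrf1 had the highest TPM of the 7 at 0 h (387 ± 13.4) and at 96 h (208 ± 7.4), and Dnmt3l at 36 h (432.9 ± 45.5). Among the de novo enzymes, Dnmt3a supplied 22.8% ± 2.8 of the Dnmt3a and Dnmt3b TPM at 0 h, 50.3% ± 1.9 at 24 h, 55.1% ± 0.56 at 36 h and 49.5% ± 4.2 at 96 h (SD, n = 3). In the fractions the mixture of both thus shifted towards Dnmt3a in the first day and stayed near equal shares. In total RNA the share of Dnmt3a was 20.8% ± 6.8 at 0 h (n = 3), 70.1% ± 0.84 at 24 h (n = 2), 40.8% at 72 h (n = 1) and 42.5% ± 6.8 at 96 h (n = 2). Of the 3 TETs, Tet1 and Tet2 had close shares at 0 h (48.1% ± 2.2 and 49.6% ± 1.8), and Tet3 had 2.29% ± 0.46. Tet1 led with 68.1% ± 1.7 at 24 h, and Tet3 had 1.55% at 24 h, 7.06% at 48 h, 34.4% at 72 h and 50.04% ± 2.1 at 96 h. The nuclear share of Tet3 at 96 h was 50.2% ± 4.6, beside 16.005% ± 2.5 for Tet1 and 33.8% ± 2.2 for Tet2. In level, cytoplasmic Tet3 stood at 14.7 ± 2.4 TPM at 96 h and 2.52 ± 0.37 TPM at 0 h, Tet1 at 8.17 ± 2.9 TPM at 96 h and 53.7 ± 7.3 TPM at 0 h, and Tet2 at 6.60 ± 1.6 TPM at 96 h and 55.0 ± 3.1 TPM at 0 h (SD, n = 3). TPM did not always follow the reads. Nuclear Tet3 at 48 h held 50.4 CPM and 6.56 TPM in run 5, and 49.4 CPM and 20.9 TPM in run 6. The part of the deposited lengths and of uneven coverage in these shares was not tested.

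**Figure D2:**
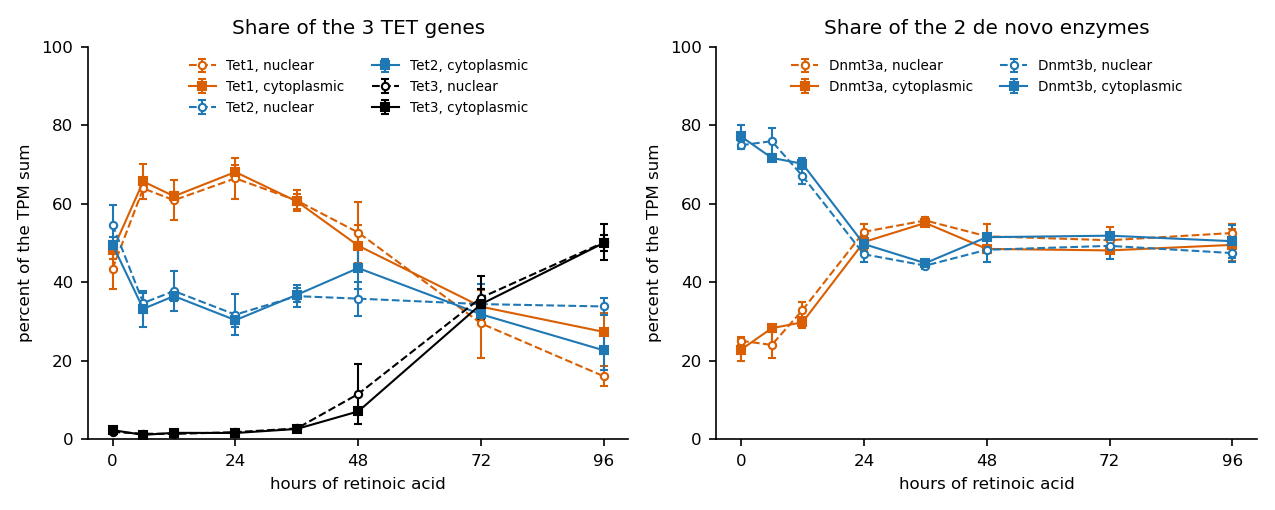
Percent of the TPM sum (y axis) against hours of RA (x axis) for the 3 TET genes (left) and for Dnmt3a and Dnmt3b (right), in nuclear (open circles, dashed) and cytoplasmic RNA (filled squares), as means with SD of 3 libraries. Tet3 had 2.29% of the cytoplasmic TET sum at 0 h and 50.04% at 96 h, and in these fractions the de novo enzymes were near equal from 24 h on. The shares rest on the deposited lengths, which were not tested.

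Nuclear and cytoplasmic CPM differed by at most 0.23 on the log2 scale when averaged over the times. CPM is scaled within each library, so these are relative levels and not amounts per cell. The study names as a possibility that its fractionation left much cytoplasmic RNA in the nuclear fraction. In that average Tet1 was higher in nuclear RNA by 0.23 (SE 0.07, edgeR adjusted p = 0.011) and Tet3 by 0.17 (SE 0.07, adjusted p = 0.045) on the log2 scale, where 13.9% of genes were called higher in nuclear RNA. Tet2 had 0.14 (SE 0.06, adjusted p = 0.065), and Dnmt3a, Dnmt3b, Dnmt3l and Uhrf1 had log2 differences from -0.06 to 0.05 that missed the threshold. Neither call held without each run: without run 5 the log2 difference of Tet1 was 0.17 (adjusted p = 0.18) and that of Tet3 0.13 (adjusted p = 0.17), and without run 6 they were 0.29 (adjusted p = 0.054) and 0.17 (adjusted p = 0.26), while without run 7 a total of 5 members passed. Fractions of the same time and number came from the same lysate. With the lysate as a block, added after seeing the data, Tet2 passed as well (0.13, adjusted p = 0.0447), beside Tet1 (0.22, adjusted p = 0.00863) and Tet3 (0.17, adjusted p = 0.0375). At single times Tet1 at 48 h stood out, with 302, 253 and 354 CPM in nuclear and 163, 211 and 158 CPM in cytoplasmic RNA, which did not overlap (log2 difference 0.77, SE 0.20, adjusted p = 0.010). Whether the nuclear excess differed between times was tested directly, and no member passed (0.102% of genes did), with an adjusted p of 0.82 and an unadjusted p of 0.049 for Tet1 and an unadjusted p of at least 0.21 for the others. DESeq2 gave 0 members as well.

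Genes with the closest course were sought over the 24 cytoplasmic libraries, by Pearson's r of log2 CPM among 9503 genes, as a description. Dnmt3a ran closest to Helz2 (r = 0.96 nuclear and 0.97 cytoplasmic), Dnmt3b to Akr1b3 (0.95 and 0.95), and Dnmt3l to Sult4a1 (0.93 and 0.98). Tet1 ran closest to Msh6 (0.97 and 0.99), Tet2 to Gm13128 (0.95 and 0.99), Tet3 to Cacfd1 (0.83 and 0.98), and Uhrf1 to Tdh (0.96 and 0.99). Among the members, Tet1 and Tet2 ran together (0.95 and 0.96), Tet3 ran opposite to Tet1 (-0.90 and -0.92) and to Tet2 (-0.89 and -0.95), and r was 0.83 and 0.84 for Dnmt3b with Dnmt3l and 0.60 and 0.62 for Dnmt3b with Dnmt3a. The libraries share 8 time points and their runs, so these values are not independent.

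Other genes of the pathway were described from lists, at 96 h against 0 h in cytoplasmic RNA, where the median over all genes was a log2 fold change of -0.02, and 33.3% of genes were called higher and 34.4% lower (27.7% and 27.8% in nuclear RNA). A list's count near these shares is no result about the list. Of 10 tested partners and regulators of maintenance, 3 rose, 6 fell and 1 missed the threshold (median -0.68). Ehmt1, a H3K9 methyltransferase, rose by 0.91 and Uhrf2, a relative of Uhrf1, by 0.57. Dppa3 (Stella), which keeps UHRF1 off chromatin, fell by 7.61, Zfp57, which guards methylation at imprints, by 1.71 and Setdb1, a H3K9 methyltransferase, by 1.33. In nuclear RNA 2 rose, 6 fell and 2 missed it.

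Of 10 tested regulators of de novo writers and TETs, 4 rose and 6 fell (median -0.90). Prdm14, which represses Dnmt3b in mESCs, averaged 0.343 ± 0.29 CPM at 96 h and 76.6 ± 6.8 CPM at 0 h, while Lin28a, an RNA-binding protein, averaged 640.3 ± 14.8 CPM at 96 h and 46.6 ± 7.8 CPM at 0 h (SD, n = 3). Gadd45g and Gadd45a, stress proteins linked to demethylation, rose by 3.81 and 2.12 on the log2 scale, and Idh1, which makes the 2-oxoglutarate that TETs consume, fell by 1.45. Of 9 base excision genes 1 rose and 5 fell (median -0.50): Tdg, the glycosylase for oxidised methylcytosine, rose by 0.39, and Ung fell by 1.69 and Parp1 by 1.16. Of 4 tested genes listed here under methyl-CpG readers and their relatives, Zbtb4 (2.13), Mbd2 (0.74) and Mbd3 (0.46) rose and Mbd1 fell by 0.42 (median 0.60).

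The methyl donor cycle, which supplies S-adenosylmethionine, had no member higher and 9 of 11 lower (median -0.83). Bhmt, which remethylates homocysteine from betaine, averaged 0.051 ± 0.088 CPM at 96 h and 218 ± 6.5 CPM at 0 h (n = 3), Shmt1 fell by 1.58 and Mthfd1 by 1.18. Germline genes whose promoters are silenced by methylation did not move one way. Of 11 tested, 6 fell, among them Dazl, an RNA-binding protein of germ cells (26.9 ± 0.42 CPM at 96 h and 265 ± 22.6 CPM at 0 h), and 4 rose, among them Ddx4, a germ cell helicase (22.3 ± 2.0 CPM at 96 h and 4.00 ± 0.68 CPM at 0 h), with a median of -0.96. Of 10 S phase genes 9 fell and Cdc6 rose (median -0.39), with Mcm3, part of the replicative helicase, at -1.05. Nuclear counts for these lists were 4 higher and 5 lower (regulators), 1 and 5 (base excision), 3 and 1 (readers), 1 and 9 (methyl donor), 4 and 5 (germline) and 1 and 6 (S phase).

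Dnmt1 could be followed over RA exposure in total RNA. In the single-end libraries of replicate 1 it held 141, 173, 148.1, 120, 116, 142 and 116 CPM at 0, 6, 24, 36, 48, 72 and 96 h, and replicate 2 held 219 CPM at 96 h and 247 CPM at 0 h. The paired-end libraries of replicate 3 held 446, 425, 421, 362 and 341 CPM at 0, 12, 24, 36 and 48 h. Within each replicate the level at the last time was below that at 0 h, and the step between replicates was wider than the step over time. At 96 h against 0 h (2 single-end libraries each) the log2 fold change was -0.26 (SE 0.42, edgeR adjusted p = 0.67), and a change of Dnmt1 was not detectable at this spread. It was 0.20 without 0 h replicate 2 and 0.18 without 96 h replicate 1, both far from the threshold.

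Of the other members, Dnmt3a rose and Uhrf1 fell in the same test. Dnmt3a held 47.8 and 87.9 CPM at 96 h, against 20.1 and 18.5 CPM at 0 h (log2 fold change 1.77, SE 0.35, edgeR adjusted p = 0.017), and Uhrf1 held 137 and 247 CPM at 96 h, against 464 and 761 CPM at 0 h (-1.72, SE 0.42, adjusted p = 0.030). Tet3 rose to 20.0 and 59.0 CPM at 96 h, against 4.23 and 9.72 CPM at 0 h (2.45, SE 0.66, adjusted p = 0.040), and Tet1 fell to 12.4 and 30.2 CPM at 96 h, against 52.0 and 182 CPM at 0 h (-2.51, SE 0.71, adjusted p = 0.047). These 2 higher and 2 lower members stood in a background of 16.4% of genes called higher and 13.3% called lower. Each of the 4 calls ended when a library was left out: Dnmt3a (1.29, adjusted p = 0.057) and Tet3 (1.499, adjusted p = 0.16) without 96 h replicate 2, and Uhrf1 (-1.31 and -1.30, adjusted p = 0.059 and 0.13) and Tet1 (-1.33 and -1.95, adjusted p = 0.081 and 0.15) without 0 h replicate 2 and without 96 h replicate 1.

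The remaining 3 members missed the threshold in total RNA. Tet2 held 1.62 and 8.93 CPM at 96 h, against 8.20 and 67.7 CPM at 0 h (-2.90, SE 1.18, adjusted p = 0.12, 0.0081 by DESeq2), and Dnmt3b 83.4 and 103 CPM at 96 h, against 101 and 154 CPM at 0 h (-0.50, SE 0.30, adjusted p = 0.26). Dnmt3l held 89.1 and 67.2 CPM at 96 h, against 113 and 147 CPM at 0 h (-0.78, SE 0.28, adjusted p = 0.087), so that its sign was opposite to that in both fractions. The study corrected total RNA for batches made of its replicates and of samples that stood in for failed ones. How these map to the replicate numbers used here was not established. With the replicate number as a block 7469 genes were called (4683 without it), among them Tet2 (-2.71, edgeR adjusted p = 0.00203) and Dnmt3l (-0.78, adjusted p = 0.0472). Its level at 0 h was 85.6 to 147 CPM in the 3 total RNA libraries and 17.2 to 25.2 CPM in the 6 fraction libraries, and these came from separate experiments. A transient course of Dnmt3l was seen in total RNA and in the fractions. Replicate 1 held 113, 289, 304, 348, 349, 136 and 89.1 CPM at 0, 6, 24, 36, 48, 72 and 96 h, with nearly equal libraries at 36 h and 48 h. Replicate 3 held 85.6, 268, 195, 208 and 117 CPM at 0, 12, 24, 36 and 48 h. Its highest value was thus at 12 h, while the mean was highest at 48 h in both fractions. Among the lists in total RNA, beside 16.4% of genes higher and 13.3% lower, maintenance partners had 1 higher and 8 lower of 12, with Trim28, the cofactor of ZFP57, at -1.37 and Pclaf, a PCNA-binding partner of DNMT1, at 1.66, and S phase genes had 7 of 14 lower, including Mcm5 (-1.52).

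**Figure D3:**
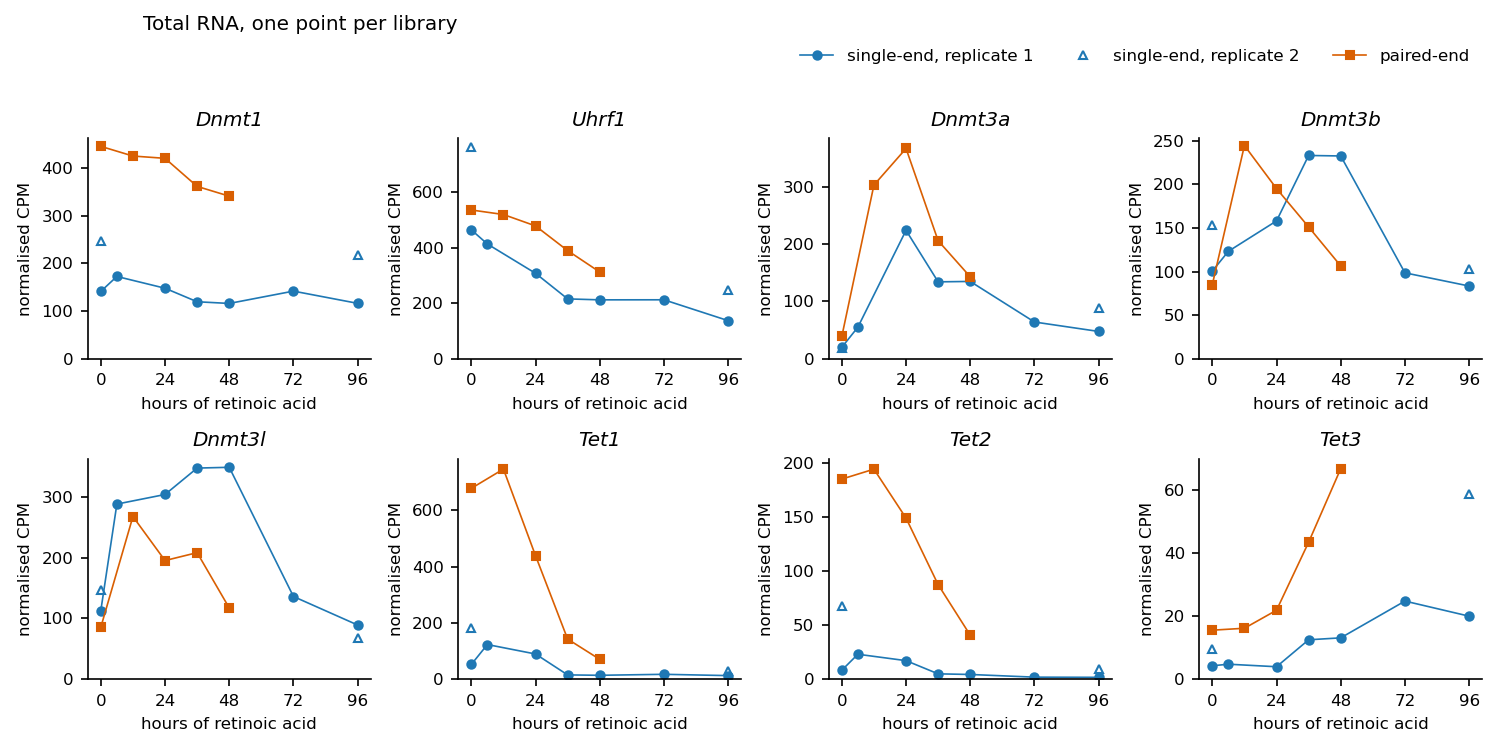
TMM-normalised CPM in total RNA (y axis, linear, from 0) against hours of RA (x axis) for the 8 members, 1 point per library (single-end replicate 1 filled circles, replicate 2 open triangles, paired-end replicate 3 squares). Dnmt1 levels differed more between replicates (141, 247 and 446 CPM at 0 h) than over time within a replicate.

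Per length, Dnmt1 supplied 39.6% and 45.9% of the TPM of the 3 methyltransferases in the 2 single-end libraries at 96 h, against 46.2% to 70.3% in the 3 libraries at 0 h, of which the highest was paired-end and had no counterpart at 96 h. A separate table of reads in coding sequence and 3' UTR, with 11 single-end columns, showed where on each mRNA the reads fell. The 3' UTR held a median of 98.9% of such reads for Dnmt3a, 97.3% for Tet1, 86.2% for Tet2, 35.5% for Tet3, 21.3% for Dnmt3b, 9.07% for Uhrf1, 3.33% for Dnmt3l and 0.476% for Dnmt1, against 71.2% to 83.8% over all genes. The short UTR of Dnmt1, which carries the TGCACTG site, thus contributed almost no reads.

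The sorted cells give the members' values in each lineage at 96 h, with 1 library each and so without a test. The intervals cover counting error only, and the spread between sorted replicates is not known. Dnmt3l was at 142 CPM in XEN and 7.64 CPM in ECT, 18.6-fold higher in XEN (95% interval 16.6 to 20.98). Dnmt3a was at 25.6 CPM in XEN and 70.1 CPM in ECT (ratio of XEN to ECT 0.365, 0.334 to 0.397), Tet1 at 7.22 CPM in XEN and 20.2 CPM in ECT (0.358, 0.304 to 0.421) and Tet3 at 10.1 CPM in XEN and 34.6 CPM in ECT (0.292, 0.255 to 0.334). These 4 were past 2-fold, as were 6.59% (higher in XEN) and 21.6% (lower in XEN) of 15089 genes. Unsorted 96 h libraries of replicates 1 and 2 also differed from each other. Dnmt3a held 47.8 and 87.9 CPM there, Tet1 12.4 and 30.2 CPM, and Tet3 20.0 and 59.0 CPM. Dnmt3l held 89.1 and 67.2 CPM. The part of such spread between libraries in the XEN to ECT ratios was not tested.

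The other 4 members were closer to equal. Dnmt3b was at 88.2 CPM in XEN and 64.8 CPM in ECT (1.36, 1.29 to 1.44), Dnmt1 at 96.7 CPM in XEN and 108 CPM in ECT (0.893, 0.8501 to 0.939) and Uhrf1 at 140 CPM in XEN and 137 CPM in ECT (1.02, 0.980 to 1.07). Tet2 rested on 24 counts in XEN and 67 in ECT (0.560, 0.336 to 0.904). Per length, Dnmt3b had the largest share of the TPM of the 3 methyltransferases in the XEN library, 49.5% (29.8% in ECT). Dnmt3a had 9.61% in XEN and 33.0% in ECT, and Dnmt1 had 40.9% in XEN and 37.2% in ECT. The median 3' UTR share of reads in single-end libraries was 98.9% for Dnmt3a, 21.3% for Dnmt3b and 0.476% for Dnmt1. The part of this uneven coverage in the TPM shares was not tested.

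The marker lists bear on how clean these libraries were. XEN markers were over 2-fold higher in XEN for 8 of 12 genes and summed to 32294 CPM in XEN and 12755 CPM in ECT, and 11 of 12 ectoderm markers were over 2-fold higher in ECT (141 CPM in XEN and 1359 CPM in ECT). Of 6 fibroblast markers with more than 10 counts, 5 were over 2-fold higher in ECT (6.36 CPM in XEN and 248 CPM in ECT). Of 8 such naive pluripotency markers, 5 were over 2-fold higher in XEN and 2 in ECT (286 CPM in XEN and 150 CPM in ECT). Over 2-fold higher in ECT were 8 of 10 formative and primed, 3 of 6 trophoblast and 5 of 5 two-cell-like markers, and 0 of these were in XEN. Over all genes, 6.59% were past 2-fold in XEN and 21.6% in ECT. The part of XEN cells in the ECT values of the members was not tested. Of the pathway lists, the maintenance partners had a median log2 ratio of XEN to ECT of -0.12, the readers -0.46, the base excision genes -0.23 and the methyl donor cycle 0.38, with -0.01 over all genes, and 7 of 10 germline genes with more than 10 counts were over 2-fold higher in ECT.

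**Figure D4:**
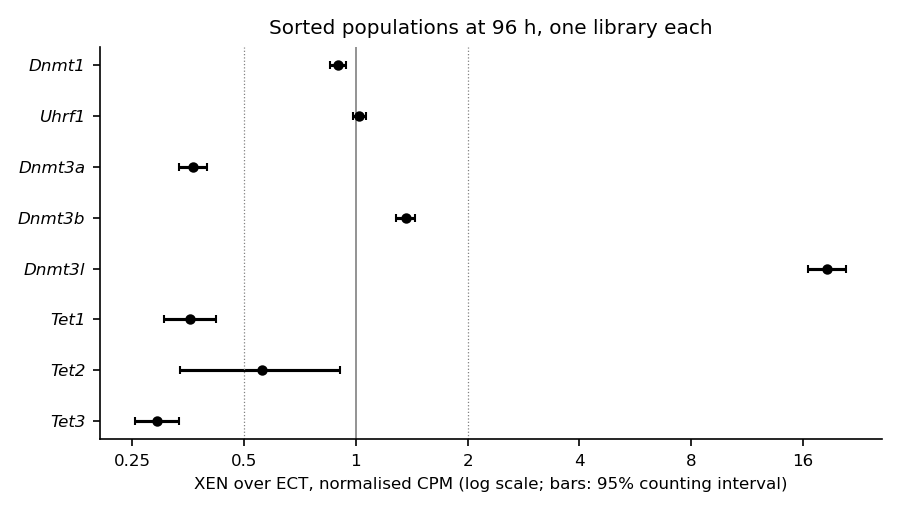
Ratio of XEN to ECT (x axis, log scale) in TMM-normalised CPM for the 8 members at 96 h, 1 library each, with 95% counting intervals and dotted lines at 2-fold. Dnmt3l stood at 18.6, Dnmt3a, Tet1 and Tet3 below 0.5, and Uhrf1 at 1.02.

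Small RNA counts gave the course of the miRs whose seed complements stand in these genes. miR-152-3p was lowest at 24 h, with 530, 442, 443 and 437 CPM in runs 3, 5, 6 and 7, and held 2403, 2060, 2280 and 2044 CPM at 96 h, against 2698, 727, 705 and 769 CPM at 0 h. The run 3 library at 0 h stood far above the other three. With it the log2 fold change at 96 h was 0.84 (SE 0.39, edgeR adjusted p = 0.12), and without runs 3 and 4 it was 1.63 (adjusted p = 0.0021). DESeq2 also called it (0.89, adjusted p = 0.027). The passenger arm miR-152-5p rose (83.9 ± 41.9 CPM at 96 h and 28.8 ± 13.3 CPM at 0 h, n = 4, log2 fold change 1.54, SE 0.53, adjusted p = 0.031), and was the only 1 of 11 tested arms called, where 13% of 739 miRs were called higher. That call ended without run 5 (adjusted p = 0.13) and without run 6 (0.18). With the run as a replicate block (runs 3 and 4 as a shared block) 317 miRs were called, against 182 without it, and 5 arms. Of these, miR-152-3p (0.98, edgeR adjusted p = 0.0192) and miR-152-5p (1.44, adjusted p = 0.00293) were higher at 96 h. The arms miR-148b-5p (-1.36, adjusted p = 0.0199), miR-29a-3p (-2.34, adjusted p = 0.00323) and miR-29b-3p (-1.86, adjusted p = 0.00583) were lower.

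The relatives of miR-152-3p moved less clearly. miR-148b-3p averaged 2161 ± 669 CPM at 96 h and 2726 ± 676 CPM at 0 h (log2 fold change -0.34, adjusted p = 0.52). miR-148a-3p was dominated by run 7, where it held 223288 to 831867 CPM from 6 h to 96 h and 34479 CPM at 0 h. miR-29a-3p averaged 103 ± 65.2 CPM at 96 h and 331 ± 135.1 CPM at 0 h (-1.68, SE 0.96, adjusted p = 0.23), and miR-29b-3p and miR-29c-3p held at most 13.7 and 9.44 CPM in any library.

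Transfection of a miR-152-3p mimic addressed whether more of this miR lowers Dnmt1 mRNA. Dnmt1 held 487, 471 and 527 CPM with the mimic, against 652, 689 and 616 CPM with scrambled oligo and 581, 617 and 577 CPM with no treatment. The groups did not overlap, Dnmt1 was lower than scrambled in 3 of 3 batches, and the mimic had the lowest mean of the 16 groups (47 libraries). Dnmt3l, which lacks the site, also had its lowest mean of the 16 groups with this mimic (586 CPM, against 646 CPM with scrambled). The log2 fold change against scrambled was -0.39 (SE 0.11), 1.31-fold lower, with an unadjusted p of 0.00084 and an edgeR adjusted p of 0.21, so that it missed the threshold of 0.01 over 12502 genes. The exact two-sided permutation test, which treats the libraries as unpaired, gave p = 0.1, the smallest that 3 against 3 allows. Against no treatment the log2 fold change was -0.25 (adjusted p = 0.87).

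This call turned on a library of another mimic. Without miR-1946b replicate 2, which shares the spread of the fit, the log2 fold change stayed at -0.39 and the adjusted p was 0.0021, an alternative chosen after seeing the data. With the batch as a block the adjusted p was 0.073, with DESeq2 0.087, and with each batch left out 0.066 to 1.00. Few genes were called with this mimic, 0.056% of those tested (7 genes, 18 with the block), or 0.112% without miR-1946b replicate 2. Uhrf1, the other member with the site, held 969, 939.8 and 869 CPM with the mimic, against 1081, 938 and 954 CPM with scrambled (log2 fold change -0.09, SE 0.11, adjusted p = 0.99), and its groups overlapped. The members without the site had log2 fold changes from -0.40 (Tet1, SE 0.27) to 0.14 (Dnmt3b, SE 0.23), so that Tet1 moved by as much as Dnmt1 with a wider error.

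The inhibitor of miR-152-3p left Dnmt1 near the controls, with 525, 608 and 462 CPM against 437, 624 and 553 CPM with scrambled (none: 492, 610 and 513 CPM). The log2 fold change was -0.02 (SE 0.13, edgeR adjusted p = 1.00), and 0.00768% of genes (1 of 13029, and 7 with the batch as a block) were called. Uhrf1 had -0.04 (SE 0.09). Tet3 had the widest change with this inhibitor (0.43, SE 0.17, unadjusted p = 0.016, adjusted p = 1.00).

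**Figure D5:**
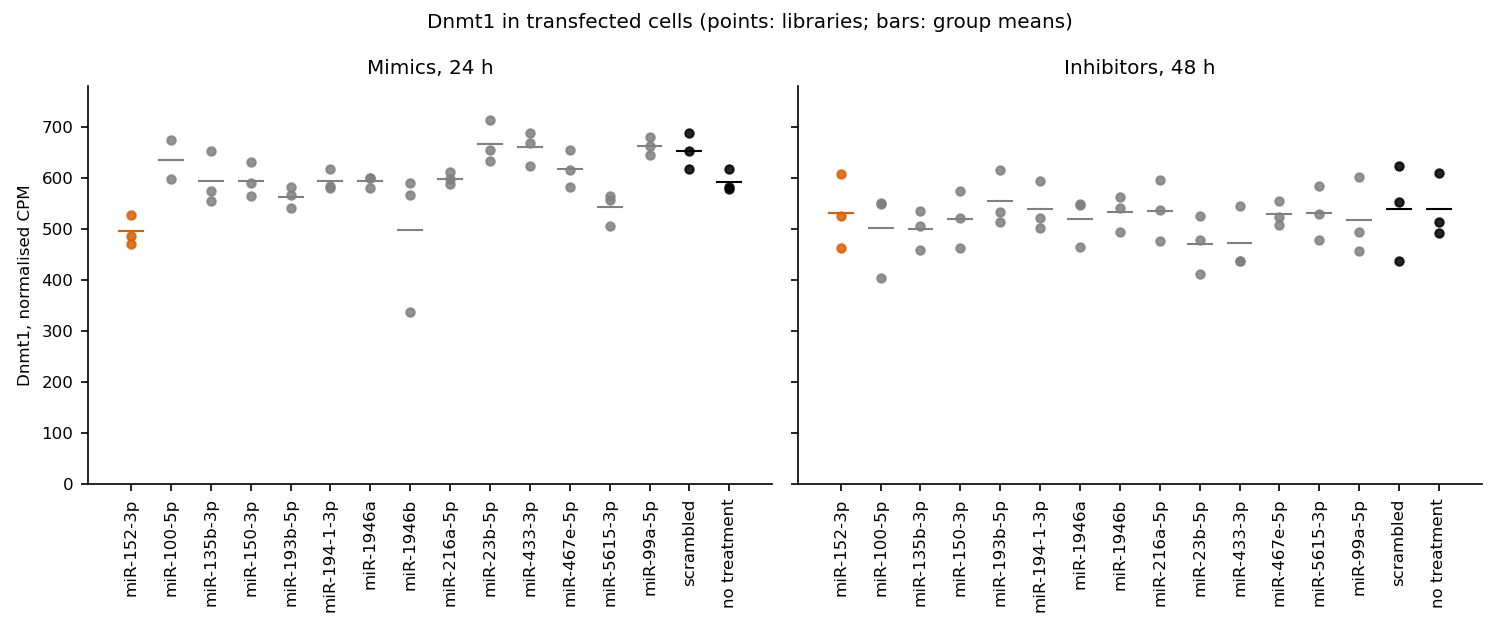
Dnmt1 in TMM-normalised CPM (y axis, from 0) in every transfection group, mimics for 24 h (left) and inhibitors for 48 h (right), with 1 point per library and bars at group means. The miR-152-3p mimic (487, 471 and 527 CPM) lay below scrambled (652, 689 and 616 CPM), and the miR-1946b mimic held a single low library at 337 CPM.

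Across the 14 mimics, 0 of 112 tests of a member passed the threshold with edgeR, with DESeq2 or with the batch as a block, 7 had an unadjusted p under 0.05 and 2 under 0.01, and log2 fold changes ran from -0.57 to 0.28. In the background 0.0983% of all gene and mimic pairs were called (0.419% with the block). The other low p belonged to Dnmt1 with miR-1946b (log2 fold change -0.38, adjusted p = 0.083), where the libraries held 590.0, 337 and 567 CPM and only replicate 2 was low. In that library Uhrf1 (540 CPM), Tet1 (221 CPM), Tet2 (49.4 CPM) and Tet3 (9.02 CPM) had their lowest and Dnmt3l (1052 CPM) its highest values of the 47 mimic libraries used. Across the 14 inhibitors, 0 of 112 tests passed with edgeR, with DESeq2 or with the block, 4 had an unadjusted p under 0.05 and 2 under 0.01, and 0.0428% of all gene and inhibitor pairs were called (0.217% with the block). The 2 were Dnmt3l with miR-1946a (-0.57, adjusted p = 0.37) and Tet1 with miR-1946b (-0.36, adjusted p = 0.40).

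Seed complements of the other transfected miRs were searched in the same UTRs, apart from miR-1946a and miR-467e-5p, whose sequences were not used here. With 6 miRs there were 16 pairs of a member and a miR with at least 1 match. Their log2 fold changes with the mimic ran from -0.39 to 0.13 (median -0.08, 14 of 16 below 0, beside 73 of all 112 pairs of a member and a mimic), and with the inhibitor from -0.13 to 0.24 (median -0.00, 8 of 16 above 0, beside 46 of all 112). With the mimics Tet1 was below 0 in 14 of 14 tests, with or without a match. All 14 shared the scrambled libraries, where Tet1 averaged 643 CPM, against 509 CPM with no treatment. Scrambled replicate 3 held 912 CPM, the highest Tet1 value of the 47 mimic libraries used. The 14 signs are therefore not independent, and the part of this library in them was not tested. Apart from Dnmt1 with miR-152-3p, the lowest unadjusted p among the 16 pairs with a match was 0.23 with a mimic and 0.16 with an inhibitor. Scrambled against no treatment gave 0 of 8 members called in either experiment by edgeR, and 0 with an unadjusted p under 0.05. The mimic and inhibitor experiments were separate and differed in their untreated cells, where Dnmt3l averaged 634 CPM (mimics) and 50.7 CPM (inhibitors), Dnmt3b 342 and 57.0 CPM, and 10 formative and primed pluripotency markers, Dnmt3b among them, summed to 762 to 950 and 142 to 175 CPM. The part of this in the contrast between mimics and inhibitors was not tested.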

How the data were processed

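Per the labels and the study's methods, the authors aligned single-end total RNA reads with Bowtie2 2.2.6 and counted them with RSEM 1.2.28, and trimmed (Trimmomatic 0.38), aligned (STAR 2.6.1a) and counted (RSEM 1.3.1) the paired-end total, fraction and transfection reads, on mm10. The authors deposited RSEM expected counts, which were rounded here to whole numbers before testing, and TPM, which were used only for levels and shares between genes. The deposited effective lengths were not tested. miR counts were made by the authors with Bowtie 1.0.0-1 and miRDeep2. A deposited table of read counts in coding sequence and 3' UTR, made by a counter not given in the sources used here, gave the 3' UTR shares. The study also used DESeq2 1.26 and limma 3.42.2.

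Here edgeR 4.0.16 (TMM, quasi-likelihood test, R 4.3.3) was fitted to genes with a mean count above 10 (above 20 for transfections), with Benjamini-Hochberg adjustment over all genes tested and a threshold of 0.05 (0.01 for transfections, pooled over groups). SE is the log2 fold change divided by the root of F. Total RNA was tested on the single-end 0 h and 96 h libraries. Alternatives were DESeq2 1.42.0, its size factors, no filter, the replicate block, other reference groups and each replicate left out. The scripts were tested on simulated data. Where the origin of replicates is not stated, p-values measure only the spread between these libraries. Intervals cover counting error only.

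For transfections the replicate number is a labelled batch: same-batch libraries of different groups had correlated deviations (over 0.1 in 314 of 345 mimic pairs and 336 of 360 inhibitor pairs), so the samples are paired, and the unblocked design was kept with blocked values beside it. The study separated cell lysates into nuclear and cytoplasmic fractions. That fractions of a time and number shared a lysate was assumed here from the replicate numbers. Their deviations had a median correlation of -0.059, over 0.1 in 6 of 24. The study treated its total RNA replicates, and samples that stood in for failed ones, as batches, which were not matched to the replicate numbers here. The small RNA run numbers come from the library names.

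The members and lists were chosen with earlier results of these data known. Named list genes were up to 3 per direction with the lowest p past the threshold in cytoplasmic RNA, or in total RNA where not listed there; Prdm14, Lin28a, Bhmt, Dazl and Ddx4 are shown with their levels.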

Additional observations from a re-analysis of the deposited data

Results flagged for a closer look

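Within the small RNA libraries, 88 groups of 4 were searched for a library far from the rest of its group. The rule used picks about 1 in 20 groups of independent, normally spread values. The groups here share libraries and related arms, so that rate is no yardstick for them. In all, 16 were found. Of these, 12 were in run 7, and 6 were miR-148a-3p, which held 277477, 540430, 504115, 223288, 831867 and 753952 CPM in run 7 at 6, 12, 24, 36, 72 and 96 h, against highest values in the other runs of 13287, 15581, 25549, 16189, 62968 and 21339 CPM. At 48 h run 7 held 400843 CPM. miR-148a-5p also stood apart in run 7, with 810 CPM at 6 h, 1057 at 12 h, 1080.4 at 36 h and 753 CPM at 96 h, against 119 to 278 CPM in the other runs at those times. miR-148b-3p held 3861 CPM in run 7 at 36 h (2235 to 2330.1 in the others) and miR-152-5p 30.2 CPM in run 7 at 6 h (9.88 to 11.8 in the others).

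miR-152-3p stood apart in the run 3 libraries at 0 h (2698 CPM, against 705 to 769 in the others) and at 24 h (529.96 CPM, against 437 to 443), and in the run 4 library at 6 h (882 CPM, against 524 to 547). miR-29b-2-5p held 1.80 CPM in run 5 at 0 h (0.777 to 0.915 in the others).

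Dnmt3l differed in sign between experiments at 96 h against 0 h. In total RNA its log2 fold change was -0.78, and both 96 h libraries (89.1 and 67.2 CPM) lay below the single-end 0 h libraries tested. The paired-end 0 h library, which was not in that test, held 85.6 CPM. In nuclear and cytoplasmic RNA the log2 fold changes were 2.00 and 1.73, and all 96 h libraries lay above those at 0 h. The difference between experiments was not tested.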

How the results depend on the processing

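Of the members' log2 fold changes under planned and added alternatives, 560 kept their direction and side of the threshold, 13 lost the call, 13 gained it and 25 uncalled ones changed sign, and none that was called did (miR arms: 72, 3, 8 and 3). Leaving out a run gave 2192 to 3819 genes (3893 with all runs) in cytoplasmic RNA at 6 h and 2333 to 4465 (4304) at 72 h against 48 h, 1273 to 1957 (2419) and 1510 to 2013 (2747) in nuclear RNA, and 1392 to 3894 (3676) for nuclear against cytoplasmic RNA, with 0 to 5 members (2). The difference between times had 12 genes (0 to 2 without a run, 150 with DESeq2, 521 with no filter, including 1 member). In total RNA 4 members became 2 to 5 and 4683 genes became 2511 to 4383 without a library, and 7234 with all 14 libraries. For the miR families 1 arm became 0 to 2 without a run, 3 with DESeq2 and 0 with no filter, and 182 miRs became 107 to 282 without a run.

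For mimics, 0.0983% of gene and miR pairs called became 0.247% with DESeq2, 0.064% against no treatment, 0.000569% with only the 2 groups fitted, 0.237% with miR-100-5p replicate 3, 0.261% without miR-1946b replicate 2 and 0.00171% to 0.0368% without a batch. For the miR-152-3p mimic the 7 genes became 15, 3, 0, 0, 14 and 0 under the same settings and 2 with no filter. Dnmt1 was the 1 member called, at -0.39 without miR-1946b replicate 2, which was chosen after seeing the data, and ran from -0.48 to -0.32 without a batch. For inhibitors 0.0428% became 0.112% with DESeq2, 0.0871% with no filter, 0.00546% with only the 2 groups and 0.00055% to 0.0349% without a batch, and the 1 gene with miR-152-3p became 19 with no filter, 0 against no treatment, 0 with only the 2 groups and 0 to 2 without a batch, while Dnmt1 ran from -0.14 to 0.10. The cause of these shifts was not tested.

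With the replicate block, 0.419% of mimic pairs (18 genes for miR-152-3p) and 0.217% of inhibitor pairs (7 genes) were called. Same-numbered libraries correlated over 0.1 in 40 of 84 cytoplasmic, 38 of 84 nuclear and 107 of 112 small RNA pairs, and the block gave 7 genes for the difference between times (1 with the lysate as a block), 7469 in total RNA, and 317 miRs with 5 arms. Depth limits Tet2 in sorted cells most (24 and 67 counts).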
